A study of Homo sapiens with 9 samples.

Results

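The genes described here are 37 human genes that charge, make or import amino acids. They are the 20 genes of the cytosolic aminoacyl-tRNA synthetases, 10 genes of amino acid and one-carbon synthesis and 7 genes of amino acid transporters. They were chosen by name, with earlier results of these data already known, so they are not a set picked blind to the data. All 37 have a row among the 56609 gene symbols of the table. RNA was sequenced in MCF10A, an established non-tumorigenic line of human breast epithelial cells, with 3 samples in each of 3 groups. The control samples were untreated. The high calcium samples were kept for 16 h with 10 mM calcium and the calcium ionophore ionomycin, labelled as 1 mM, and no group had either agent alone. The TGFb3 samples were given 10 nM transforming growth factor beta 3 for 16 h. All groups are of the 1 cell line and, per the labels, grew in the same serum-containing medium with EGF, hydrocortisone, cholera toxin and insulin. The labels do not say that samples came from separate cultures, so p-values reflect the spread among these samples alone and that spread may be technical.

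An aminoacyl-tRNA synthetase joins one amino acid to its transfer RNA, the step that fixes which residue each codon adds to a protein. When transfer RNAs run uncharged or the endoplasmic reticulum is stressed, kinases phosphorylate the initiation factor eIF2 and the transcription factor ATF4 is made. ATF4 with its C/EBP partners is known to bind a composite site, the C/EBP-ATF response element, in genes of amino acid synthesis, of amino acid transport and of many but not all cytosolic synthetases. In the mammary epithelium the same genes feed milk protein synthesis, and the transcription factor MYC and the kinase complex mTORC1 are also known to regulate them.

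The response element is short enough to be read in the promoters. RefSeq windows of 300 bases (GRCh38.p14, 250 before to 50 after a start of transcription) were found for 29 of the 37 genes. The others were DARS, LARS, VARS, YARS, PSPH, SHMT2, PYCR1 and SLC7A11. The letters TGATGNAA, searched on both strands, stood in at least 1 window of 12 of the 29 genes (41.4%). They stood in 3.62% of all 35116 windows, in 4.46% of the 27305 genes with a window, and in 2.7% of the 9511 such genes that were also tested for expression here. The 12 stretches are shown because they hold the letters of the element that ATF4 is known to bind. Each runs 5′ to 3′ on the strand of its gene, with the match in capitals, and a match that ends in CATCA lies on the other strand.
AARS: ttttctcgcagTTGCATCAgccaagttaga
CARS: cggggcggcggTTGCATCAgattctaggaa
GARS: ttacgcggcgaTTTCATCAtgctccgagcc
IARS: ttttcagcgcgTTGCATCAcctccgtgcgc
MARS: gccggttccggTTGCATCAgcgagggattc
NARS: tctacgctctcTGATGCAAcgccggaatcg
TARS: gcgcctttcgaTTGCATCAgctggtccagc
ASNS: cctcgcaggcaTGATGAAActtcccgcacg
SLC3A2: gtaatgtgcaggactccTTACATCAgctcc
SLC7A1: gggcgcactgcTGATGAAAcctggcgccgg
SLC1A5: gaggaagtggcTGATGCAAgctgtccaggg
SLC1A4: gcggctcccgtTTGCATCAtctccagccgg
Places are given relative to the annotated start of the window that holds the match. On GRCh38.p14 the stretches before that start are those of AARS (chr16:70289675-70289704, minus strand), GARS (chr7:30594834-30594863, plus), IARS (chr9:92293692-92293721, minus), ASNS (chr7:97872458-97872487, minus) and SLC1A5 (chr19:46784893-46784922, minus). The match spans the start in CARS (chr11:3057407-3057436, minus), MARS (chr12:57488053-57488082, plus) and SLC1A4 (chr2:64989381-64989410, plus). It lies after the start in NARS (chr18:57621804-57621833, minus), TARS (chr5:33440956-33440985, plus), SLC3A2 (chr11:62881719-62881748, plus) and SLC7A1 (chr13:29595663-29595692, minus). Genes with several annotated starts had several windows, and for SLC1A5, SLC1A4, SLC3A2, CARS, GARS, TARS and ASNS the match was in only 1 of them. For SLC1A5 that window is at an internal start, within the gene (46774883 to 46788594), and the windows further upstream held no match. The same holds for SLC1A4 (gene from 64988477), SLC3A2 (gene from 62856102), GARS (gene from 30594681) and TARS (gene from 33440696). Of the other stretches before or across a start, 4 also lie within the annotated gene. These are MARS (gene from 57475445) and, on the minus strand, CARS (gene up to 3057613), IARS (up to 92293756) and ASNS (up to 97872542). Of other letters searched, CCAAT stood in 55.2% of the 29 genes, in 39.7% of all genes and in 43.7% of the tested genes. CCACG stood in 55.2% of the 29 genes, in 42.1% of all genes and in 57.3% of the tested genes. CCAAT followed after 9 bases by CCACG, the endoplasmic reticulum stress element, was in 0 of the 29 and in 0.0916% of all genes. These are letter matches and not measured binding.

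Values are TPM, transcripts per 1000000, a share of each library corrected for transcript length, so levels can be compared between genes. A difference between groups is that of log2(TPM + 1), given with its standard error (n = 3 in each group), and a gene was called at an adjusted p under 0.05 in limma, adjusted over all 13968 symbols whose mean reached 1 TPM. CBS, an enzyme that condenses serine with homocysteine, is listed at 0 in all 9 samples, as is its near-identical copy CBSL, which leaves 36 tested members. Whether reads that match both copies were discarded is not known, so the 0 need not mean absence. Mitochondrially encoded RNA made up 22.7 ± 0.914% (SD, n = 3) of control libraries, 11.5 ± 0.371% of high calcium libraries (two-sided exact permutation p = 0.1, where 3 against 3 allow no smaller p) and 22.7 ± 0.588% of TGFb3 libraries. All tested genes had a median log2 difference of 0.22 in high calcium and -0.06 in TGFb3, so the high calcium differences are also read relative to 0.22. MALAT1, a nuclear RNA whose share can move with RNA quality, rose by log2 1.45 in high calcium and 0.40 in TGFb3, and the part of these shifts in the results was not tested. For the labelled epithelium, all 9 epithelial markers were present, though at unlike levels. KRT5 stood at 1221, 1237 and 1299 TPM in controls, but KRT14 was low at 9.80, 2.26 and 10.6 TPM. Of 9 markers of fibroblasts, blood, endothelium and liver, PTPRC was listed at 0 throughout and PDGFRA, PDGFRB, PECAM1, VWF and ALB stayed under 1 TPM. The summed level of the 9 was 5.82, 5.09 and 5.32 TPM in controls, 47.6, 24.0 and 36.0 TPM in high calcium and 43.3, 42.6 and 37.1 TPM in TGFb3, mostly CD68, DCN and COL1A1, and its part in the results was not tested. Strandedness of the counting is not given in the sources used here, so reads of a member and of an overlapping gene on the other strand cannot be told apart. This touches MARS (DDIT3, ARHGAP9), HARS (HARS2, WDR55), KARS (TERF2IP), WARS (WDR25), YARS (S100PBP), SHMT2 (NDUFA4L2) and MTHFD2 (SLC4A5), and the antisense partners of CARS, DARS, FARSA and SLC7A11.

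In high calcium, 28 of the 36 tested genes rose, 1 fell and 7 were not called. Over all tested genes 46.1% were called higher and 17% lower. All 7 transporters and 8 of the 9 tested synthesis genes rose, with median log2 differences of 0.58 and 0.99, and 13 of 20 synthetases rose with a median of 0.41, beside 0.22 for all tested genes. A rise of log2 1 or more was called for 8 members, where 10.5% of all tested genes had one. The summed level of all members was 5688, 5848 and 5772 TPM in the controls and 8624, 8668 and 8582 TPM in high calcium. Ranges of the 2 groups were apart for 28 members that were higher and 2 that were lower, where 49.4% and 19.6% of all tested genes did not overlap in these directions. After median ratio rescaling, which sets the typical gene to no change, 23 members were called higher and 7 lower, against 29.5% and 30.9% of all tested genes. The 23 were called higher under all 5 scalings compared, and RARS, TARS, YARS, PSPH and SLC7A5 were the 5 whose call was lost.

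**Figure D1:**
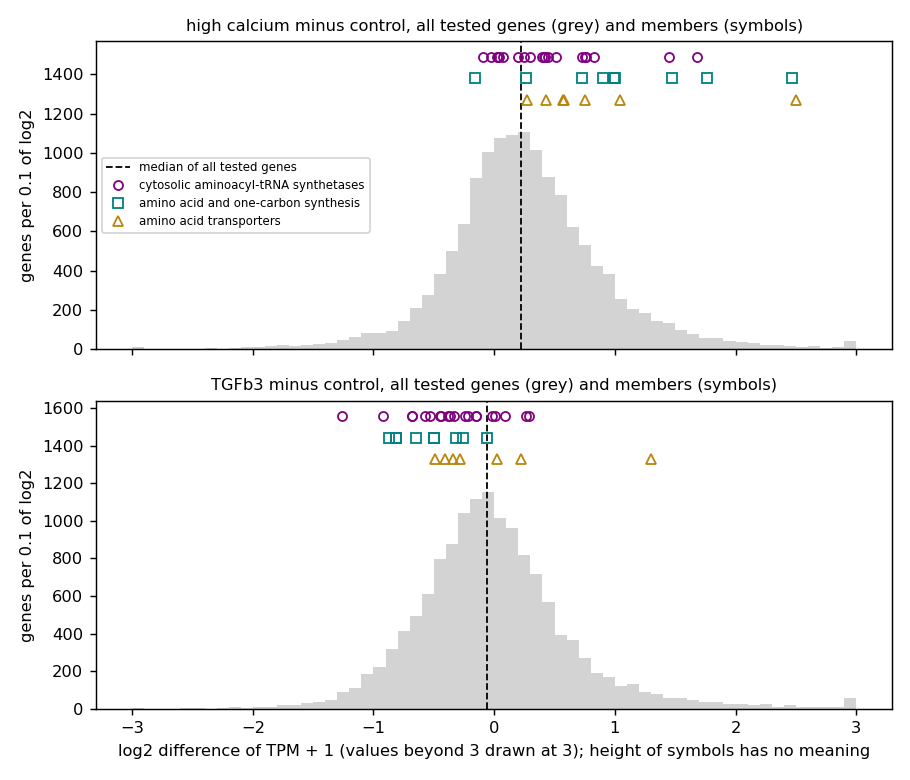
Histograms of the log2 difference of TPM + 1 from control for all 13968 tested genes (grey, genes per 0.1 of log2), with the 36 tested members drawn as symbols above (circles, synthetases; squares, synthesis; triangles, transporters) and the median of all genes as a dashed line. In high calcium the synthesis genes and transporters spread to 2.50 with all but ALDH18A1 to the right of the median, and in TGFb3 most members lie to its left with SLC1A4 alone at 1.30.

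Among the synthetases, WARS and AARS stood apart in high calcium. WARS charges tryptophan and is also known as a gene induced by interferon gamma. It stood at 91.3, 92.8 and 90.8 TPM in controls and 305, 283 and 301 TPM in high calcium, a mean 3.24 times as high (log2 1.68 ± 0.055, adjusted p = 6.3e-09; chromosome 14, 100333788 to 100376805). AARS, which charges alanine and holds a response element match 5′ of its start, went from 84.9, 83.0 and 78.8 to 227, 228 and 222 TPM, or 2.75 times the control mean (log2 1.45 ± 0.041, adjusted p = 2.4e-09; chromosome 16, 70252295 to 70289543). These were the 2 synthetases that rose by a log2 of 1 or more.

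SARS, EPRS, CARS and GARS came next. SARS, which charges serine, went from 215, 215 and 211 to 388, 371 and 385 TPM, or 1.78 times the control mean (log2 0.83 ± 0.041, adjusted p = 9.1e-08). EPRS, a fused enzyme for glutamate and proline and the most abundant synthetase in controls and high calcium, went from 300.0, 301 and 292 to 497, 499.9 and 509 TPM (log2 0.75 ± 0.045, adjusted p = 3.3e-07). CARS, for cysteine, went from 61.4, 64.2 and 59.7 to 105, 103 and 108 TPM (log2 0.76 ± 0.055, adjusted p = 1.2e-06). GARS, for glycine, which serves both cytosol and mitochondria, went from 242, 245 and 218 to 388, 384 and 397 TPM (log2 0.73 ± 0.059, adjusted p = 2.9e-06). In each of these 4 genes all high calcium samples lay above all controls.

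Smaller rises were those of MARS, YARS, IARS, VARS, LARS, TARS and RARS, with log2 differences from 0.20 (RARS, arginine) to 0.51 (MARS, methionine). MARS went from 113, 119.6 and 115 to 165, 164 and 167 TPM (log2 0.51 ± 0.038, adjusted p = 1.5e-06). It overlaps DDIT3 on the opposite strand (chromosome 12, 57475445 to 57517569), and DDIT3, the stress factor CHOP, went from 20.0, 20.8 and 16.7 to 190.0, 175 and 186 TPM, so reads of DDIT3 could have been counted for MARS. Leucine's LARS went from 203, 212 and 208 to 276, 267 and 283 TPM and isoleucine's IARS from 234, 266 and 257 to 346, 334 and 335 TPM, without overlap. YARS (tyrosine) went from 163, 176 and 180.5 to 226, 258 and 225 TPM and VARS (valine) from 36.4, 37.4 and 41.5 to 51.0, 53.1 and 50.1 TPM. TARS (threonine) went from 283, 243 and 248 to 289, 330.5 and 332 TPM and RARS from 202, 208 and 205 to 229, 234 and 243 TPM, the smallest rises of the called synthetases. Relative to the median of all genes, the log2 differences of IARS, LARS, TARS and RARS were 0.20, 0.18, 0.07 and -0.03.

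The 7 synthetases that were not called are those for aspartate, phenylalanine (both subunits), histidine, lysine, asparagine and glutamine. FARSA and FARSB encode the α and β subunits of the phenylalanine enzyme and stayed close together. FARSB had 77.3, 81.5 and 76.4 TPM in controls and 79.7, 77.4 and 83.9 TPM with high calcium (log2 0.03 ± 0.05, adjusted p = 0.57). FARSA had 53.6, 56.1 and 56.7 TPM in controls and 56.2, 59.4 and 52.8 TPM with high calcium (log2 0.02 ± 0.061, adjusted p = 0.84). KARS (lysine) had 282, 312 and 269.8 TPM in controls and 272, 282 and 293 TPM with high calcium, and NARS (asparagine) had 269, 263 and 246 TPM and then 267, 262 and 269 TPM. In these 4 genes the groups overlapped, whereas DARS (aspartate), with 135, 143 and 133 TPM in controls and 129, 127 and 131 TPM with high calcium, was lower without overlap and not called (log2 -0.09 ± 0.046, adjusted p = 0.11). Their direction depends on the scaling. After median ratio rescaling DARS, FARSA, FARSB, HARS, KARS and NARS were called lower, with log2 differences from -0.34 to -0.18, and QARS stayed uncalled. QARS (glutamine) varied within groups, with 101, 91.1 and 81.6 TPM in controls and 94.4, 108 and 124 TPM with high calcium (log2 0.25 ± 0.1, adjusted p = 0.051), and was called higher without control 1 (adjusted p = 0.024) or high calcium 1 (adjusted p = 0.01, range over the alternatives 0.01 to 1).

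**Figure D2:**
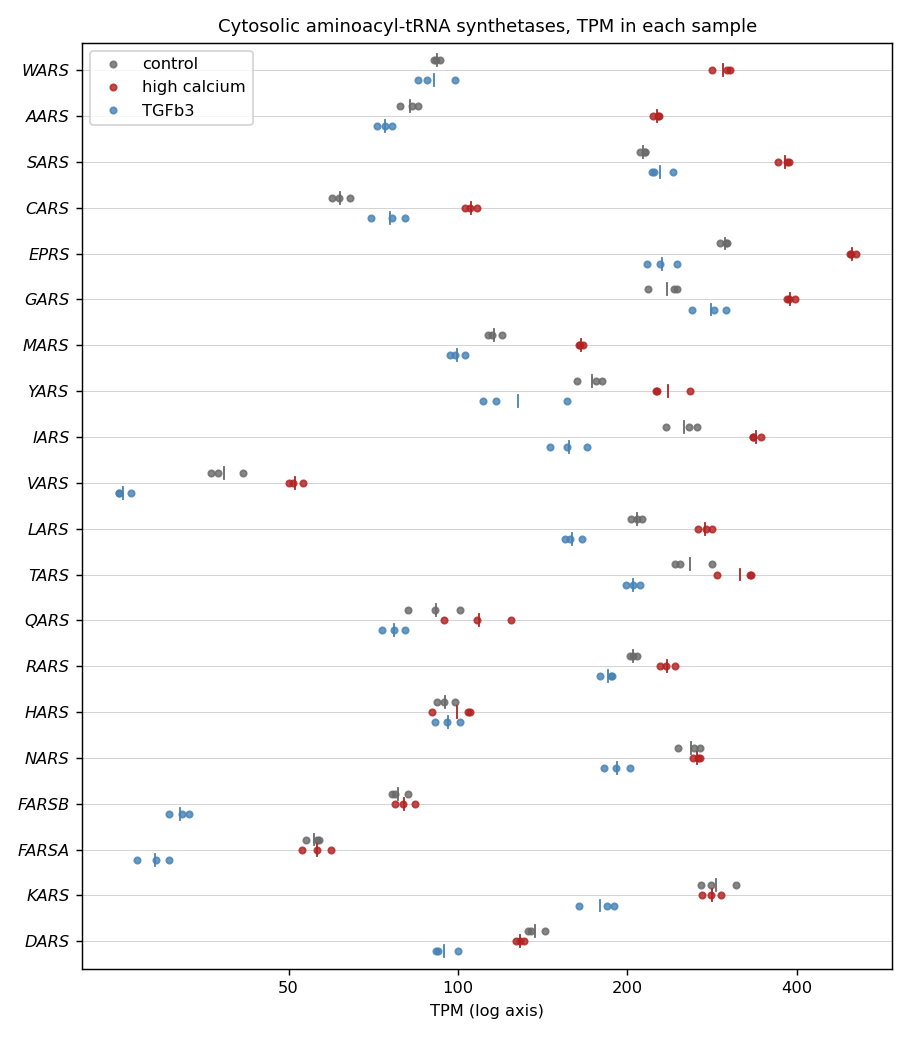
TPM of the 20 cytosolic synthetase genes (log axis) in each control, high calcium and TGFb3 sample, ordered from the largest (top) to the lowest log2 difference in high calcium; points are samples and short vertical lines are means of 3. WARS and AARS in high calcium stand clear of the other groups, the 6 lowest rows show high calcium samples close to the controls, and FARSA and FARSB show the TGFb3 samples at about 30 TPM, well below both.

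Of the synthetases, 8 sit together with scaffold proteins in the multisynthetase complex. These are DARS, EPRS, IARS, KARS, LARS, MARS, QARS and RARS, of which 5 rose and 3 were not called in high calcium (median 0.33). Of the 12 outside the complex 8 rose and 4 were not called (median 0.43). After median ratio rescaling 4 rose and 2 fell in the complex, and 6 rose and 4 fell outside it. Beside these, 46.1% of all tested genes were called higher and 17% lower, with a median of 0.22. After the rescaling the shares were 29.5% and 30.9%. The scaffold genes did not move as one. AIMP2 went from 27.3, 30.0 and 27.9 to 47.3, 47.9 and 49.8 TPM (log2 0.75 ± 0.056, adjusted p = 1.6e-06), and its groups did not overlap. AIMP1 had 75.8, 78.4 and 75.1 TPM in controls and 80.2, 84.4 and 86.0 TPM with high calcium (log2 0.13 ± 0.052, adjusted p = 0.056). EEF1E1 (AIMP3) had 109.8, 110.2 and 96.7 TPM in controls and 89.0, 100.0 and 97.9 TPM with high calcium (log2 -0.14 ± 0.068, adjusted p = 0.095). Neither was called, but EEF1E1 was called lower under all 4 other scalings, with a log2 difference of -0.39 after median ratio rescaling.

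The mitochondrion has its own set of synthetases, and few of these rose in high calcium. Among 17 genes of this kind 2 were called higher, 6 lower and 9 in neither direction, with a median log2 difference of -0.03, and after median ratio rescaling 1 was called higher and 11 lower. Of all tested genes, 46.1% were called higher and 17% lower, and 29.5% and 30.9% after the rescaling. Of 16 amino acids with a gene of each kind, the cytosolic gene had the greater log2 difference in 12 and the mitochondrial gene in 3, and the histidine pair was level. WARS2, singled out after its values were seen as the partner of WARS, had 24.2, 25.0 and 23.4 TPM in controls and 25.0, 25.3 and 28.0 TPM with high calcium and was not called. LARS2 fell by log2 0.47 (adjusted p = 6.7e-05) where LARS rose. The mitochondrial gene was ahead for valine, arginine and phenylalanine (FARSA paired with FARS2). VARS2 went from 11.4, 11.7 and 12.2 to 29.5, 28.7 and 31.5 TPM (log2 1.28 ± 0.13, adjusted p = 1.6e-05), more than VARS. These pair values are descriptions and the difference between the 2 kinds was not tested.

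**Figure D3:**
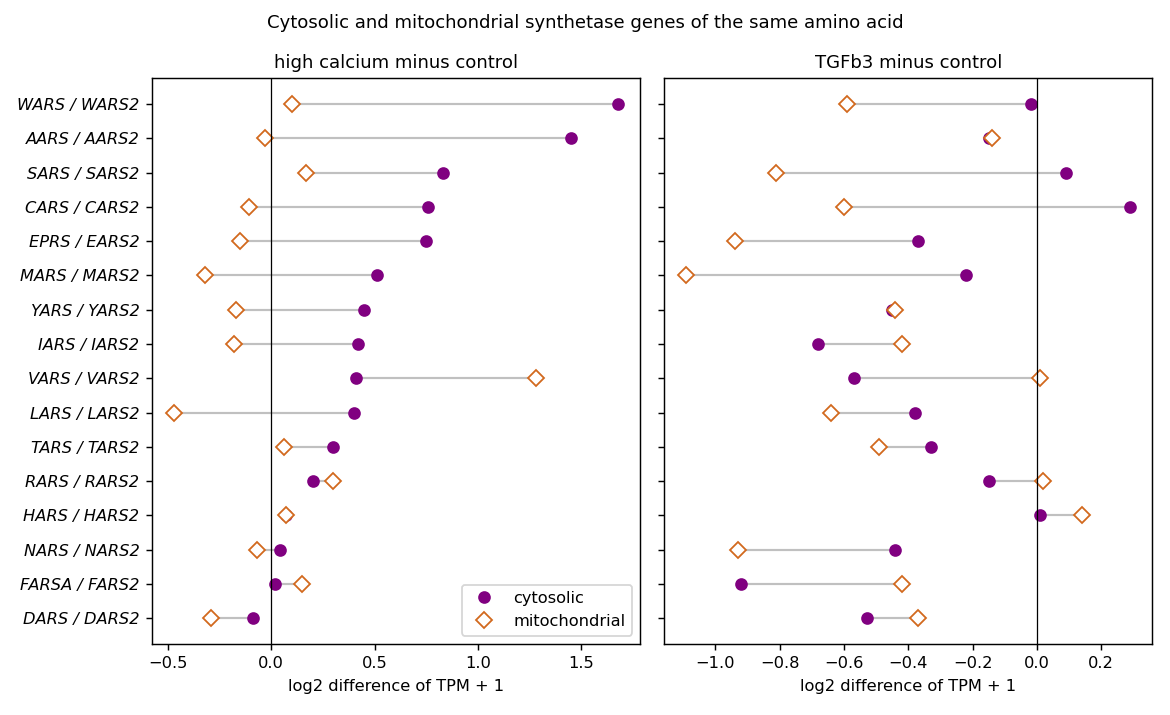
Log2 differences of TPM + 1 from control for cytosolic (filled circles) and mitochondrial (open diamonds) synthetase genes of the same amino acid, in high calcium (left) and TGFb3 (right), ordered by the cytosolic value in high calcium. On the left 12 of 16 cytosolic genes lie to the right of their partners, and VARS2 at 1.28 is the mitochondrial gene farthest right; on the right 8 lie on either side.

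Synthesis genes gave the largest rises after the transporter SLC1A4. PYCR1, which makes proline in its last step, was low at 3.62, 4.97 and 5.72 TPM in controls and reached 30.4, 30.0 and 31.2 TPM with high calcium, 6.40 times the control mean (log2 2.47 ± 0.15, adjusted p = 3.9e-07; chromosome 17, 81932384 to 81942412, where it overlaps MYADML2). CTH, which splits cystathionine to give cysteine, went from 8.63, 7.38 and 8.41 to 28.8, 32.8 and 28.6 TPM (log2 1.76 ± 0.12, adjusted p = 8.7e-07). ASNS makes asparagine and carries the match before the start of a RefSeq window, at a place within its gene span. ASNS went from 157, 175 and 148 to 438, 433 and 466 TPM, 2.79 times the control mean (log2 1.47 ± 0.1, adjusted p = 7.8e-07; chromosome 7, 97852118 to 97872542). ASNS also rose most of the abundant synthesis genes, those above 100 TPM in the controls.

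All 3 genes of serine synthesis rose, to different extents. PHGDH, which diverts a glycolytic intermediate into serine synthesis, went from 57.3, 52.6 and 55.6 to 112, 107 and 115 TPM (log2 1.00 ± 0.077, adjusted p = 1.9e-06). PSAT1, the second enzyme, went from 246, 248 and 224 to 446, 448 and 451 TPM (log2 0.90 ± 0.11, adjusted p = 4.8e-05). PSPH, the last, went from 40.5, 39.7 and 41.5 to 47.7, 50.7 and 47.8 TPM (log2 0.26 ± 0.092, adjusted p = 0.032). The PSPH call was weak: it was lost without any 1 of the control or high calcium samples (adjusted p between 0.052 and 0.095), and relative to the median of all genes the difference was 0.03. Downstream, the mitochondrial one-carbon enzymes SHMT2 and MTHFD2, which take carbon from serine onto folate, rose by log2 0.73 and 0.99. SHMT2 went from 121, 134 and 132 to 217, 217 and 209 TPM and MTHFD2 from 160.5, 169.6 and 155 to 346, 336 and 285 TPM, both without overlap.

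ALDH18A1, which makes the first committed intermediate of proline, moved against PYCR1 in the same pathway. It had 77.5, 84.7 and 86.4 TPM in controls and 72.4, 76.1 and 74.1 TPM with high calcium, and fell by log2 0.16 ± 0.05 (adjusted p = 0.019). This was the 1 fall among the members. The call was lost without control 2, control 3 or high calcium 1 (adjusted p = 0.066, 0.064 and 0.068), and the call held under all 5 scalings, with log2 differences down to -0.41.

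SLC1A4, a carrier of alanine, serine and cysteine, rose most of the transporters. It had 4.38, 4.45 and 4.02 TPM in controls and 30.0, 29.1 and 27.7 TPM with high calcium, 6.76 times the control mean (log2 2.50 ± 0.082, adjusted p = 6.2e-09; chromosome 2, 64988477 to 65023865). SLC7A11, the cystine/glutamate exchanger that supplies cysteine for glutathione, went from 58.3, 59.2 and 59.5 to 122, 129 and 117 TPM (log2 1.04 ± 0.099, adjusted p = 9.1e-06). SLC1A5, the main glutamine carrier and a relative of SLC1A4, went from 201, 217 and 228 to 394, 357 and 342 TPM (log2 0.75 ± 0.063, adjusted p = 3.6e-06). All 3 had no overlap between groups.

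SLC38A2 imports small neutral amino acids such as alanine and glutamine and is known to respond to amino acid lack. It went from 370.0, 373 and 392 to 578, 565 and 559 TPM (log2 0.58 ± 0.038, adjusted p = 6.4e-07). SLC7A1, the carrier of arginine and lysine, went from 55.7, 55.6 and 62.3 to 89.4, 87.5 and 82.8 TPM (log2 0.57 ± 0.053, adjusted p = 7.5e-06). SLC3A2 is the heavy chain that takes SLC7A5 or SLC7A11 to the cell surface, and it went from 399, 402 and 422 to 549.5, 585 and 520.5 TPM (log2 0.43 ± 0.056, adjusted p = 8.1e-05). SLC7A5, the carrier of leucine and other large neutral amino acids, was the most abundant member in controls and high calcium and moved least of the transporters, from 488, 513 and 582 to 643, 654 and 609 TPM (log2 0.27 ± 0.061, adjusted p = 0.003). Under median ratio rescaling its log2 difference was 0.02 and it was not called. The level of SLC3A2 divided by that of SLC7A5 was 0.817, 0.785 and 0.725 in controls and 0.855, 0.894 and 0.854 with high calcium, where every sample was above every control.

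**Figure D4:**
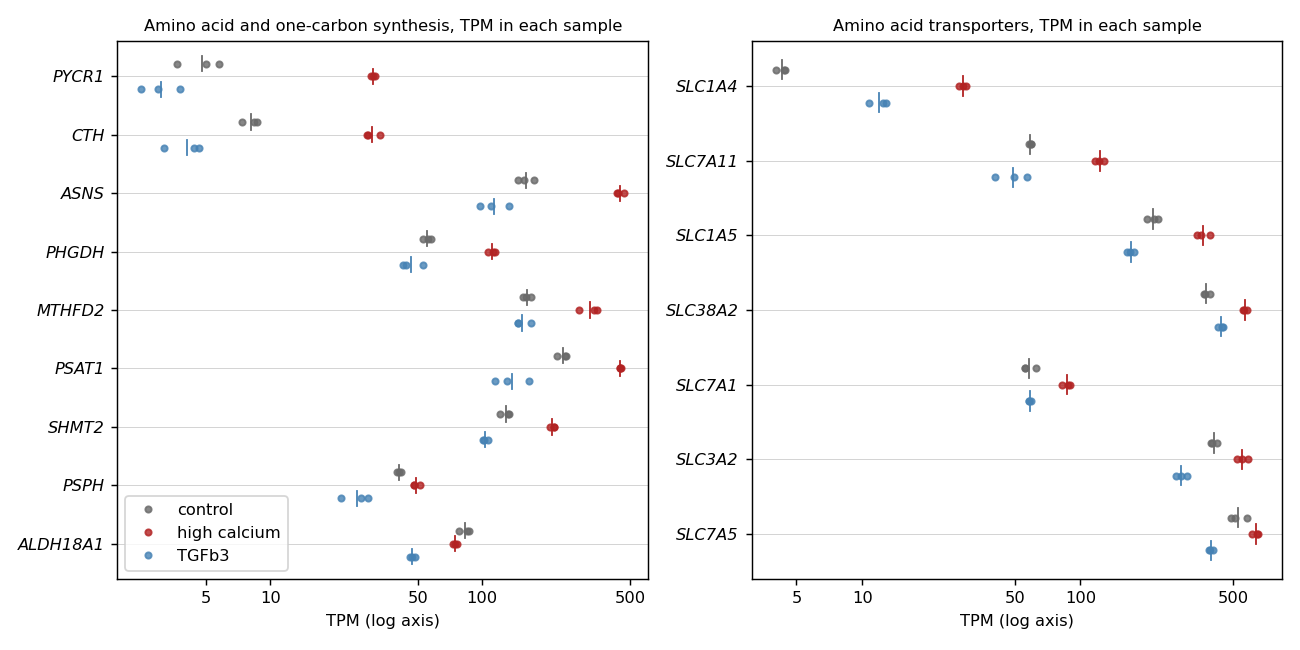
TPM (log axis) in each sample of the 9 tested synthesis genes (left) and 7 transporter genes (right), ordered from the largest (top) to the lowest log2 difference in high calcium; points are samples and short vertical lines are means of 3. PYCR1, CTH and SLC1A4, below 10 TPM in the controls, reach about 30 TPM in high calcium, and SLC1A4 is the gene at the top of its panel whose TGFb3 samples also lie well above the controls.

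The 3 tested members with the lowest control levels, SLC1A4, PYCR1 and CTH, had the 3 largest ratios to control in high calcium. Apart from level, the response element match can be set beside the response. Of the 12 members with the match 11 rose and NARS was not called, with a median log2 difference of 0.65. Of the 16 tested members with a window and no match 10 rose, 1 fell and 5 were not called, with a median of 0.43. Among all tested genes with a window, 147 of 257 with the match and 4470 of 9254 without it were called higher, with medians of 0.31 and 0.22. In TGFb3 the members with the match had a median of -0.27 (3 rose, 8 fell) and those without it -0.32 (1 rose, 10 fell). Over all tested genes with a window, 78 of 257 with the match rose and 92 fell. Without it 2618 of 9254 rose and 3328 fell. Between the treatments the member medians were 0.83 and 0.84, with 12 of 12 and 15 of 16 called higher in high calcium. Over all tested genes with a window, 146 of 257 with the match and 4940 of 9254 without it were called higher. WARS, PSAT1, CTH and PHGDH rose without a match in these windows, and the letters say nothing of sites elsewhere.

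In TGFb3 most of the set fell. Against the same controls, 26 of 36 tested members fell, 4 rose and 6 were not called. Over all tested genes 33.1% were called lower and 26.5% higher, and the samples did not overlap for 25 members that were lower, where 35.4% of all tested genes did so, and for 5 that were higher, where 28.4% did. The median log2 difference was -0.35 for the synthetases, -0.50 for the synthesis genes and -0.28 for the transporters, beside -0.06 for all tested genes. A fall of log2 1 or more was called for 1 member, FARSB, and such a rise for 1, SLC1A4, where 4.07% and 6.19% of all tested genes had one. The summed level of all members was 4572, 4583 and 4913 TPM. After median ratio rescaling 24 members were called lower and 5 higher, against 30.6% and 28.9% of all tested genes. Of the 26 falls 23 were called under all 5 scalings, and AARS, RARS and SLC7A11 were the exceptions. The controls are shared with the high calcium comparison, so the 2 sets of differences are not independent.

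The phenylalanine enzyme fell furthest in TGFb3. FARSB was at 30.6, 32.3 and 33.3 TPM, 0.409 of the control mean (log2 -1.26 ± 0.05, adjusted p = 2.7e-08), and FARSA at 30.7, 29.1 and 26.9 TPM (log2 -0.92 ± 0.061, adjusted p = 7.5e-07). Their ratio, FARSA over FARSB, was 0.694, 0.688 and 0.743 in the controls, 0.705, 0.768 and 0.630 in high calcium and 1.00, 0.901 and 0.809 in TGFb3, where all samples were above the other groups. IARS at 146, 156 and 169.8 TPM and KARS at 189, 164 and 184 TPM fell by log2 0.68 and 0.68, and VARS at 25.0, 25.0 and 26.2 TPM and DARS at 91.3, 92.2 and 99.9 TPM by 0.57 and 0.53. KARS, DARS, NARS, FARSA and FARSB, which were not called in high calcium, thus fell in TGFb3 without overlap with the controls. Falls of 7 of the 8 complex synthetases and of all 3 scaffold genes were called, where 33.1% of all tested genes were called lower. EEF1E1 was at 49.7, 47.3 and 52.9 TPM (log2 -1.06), and QARS at 80.5, 77.1 and 73.4 TPM was the complex member not called (adjusted p = 0.066). EPRS was at 217, 229 and 245 TPM and LARS at 155, 158 and 166 TPM, falls of 0.37 and 0.38 on the log2 scale. NARS was at 182, 191 and 202 TPM and YARS at 117, 111 and 156 TPM, with falls of 0.44 and 0.45. The smallest called falls of synthetases were those of AARS at 74.2, 71.7 and 76.3 TPM, RARS at 188, 179 and 187 TPM and MARS at 98.9, 96.8 and 103 TPM, of 0.15, 0.15 and 0.22.

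Of the synthetases, CARS and GARS rose in TGFb3. CARS was at 70.1, 76.5 and 80.5 TPM (log2 0.29 ± 0.055, adjusted p = 0.0012) and GARS at 261, 285 and 299 TPM (log2 0.26 ± 0.059, adjusted p = 0.0034), both above all controls and below all high calcium samples, and GARS was the most abundant synthetase in this group. SARS was at 221, 223 and 241 TPM, above all controls but not called (adjusted p = 0.073, and called higher after median ratio rescaling with adjusted p = 0.026). WARS, the gene with the largest high calcium response of its kind, was at 85.0, 88.1 and 98.6 TPM, which overlapped the controls (log2 -0.02 ± 0.055, adjusted p = 0.78). HARS and QARS were the synthetases called in neither treatment. HARS had 91.7, 98.6 and 94.3 TPM in controls, 89.8, 105 and 104 TPM with high calcium and 95.7, 91.0 and 101 TPM with TGFb3, and all 3 groups overlapped. It lies head to head with HARS2 and overlaps it on the opposite strand (chromosome 5, 140673904 to 140691862).

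Synthesis genes fell in 8 of 9 cases in TGFb3, with MTHFD2 not called at 148, 147 and 169 TPM. CTH fell by log2 0.87 to 3.16, 4.62 and 4.38 TPM and PSAT1 by 0.81 to 115, 131 and 167 TPM. ALDH18A1 fell by 0.81 to 48.2, 45.7 and 46.7 TPM and PSPH by 0.65 to 26.8, 21.5 and 28.9 TPM, and SHMT2 by 0.32 to 101, 102 and 106 TPM. In these 5 genes every TGFb3 sample lay below every control. ASNS was at 97.7, 110.5 and 133 TPM (log2 -0.50 ± 0.1, adjusted p = 0.0016), below all controls. PHGDH at 42.4, 43.5 and 52.6 TPM and PYCR1 at 3.76, 2.47 and 2.96 TPM were called lower (adjusted p = 0.015 and 0.016) although 1 TGFb3 sample of each reached into the control range. The PHGDH call was lost without control 1, TGFb3 1 or TGFb3 2 (adjusted p = 0.051, 0.056 and 0.055), and that of PYCR1 without control 3 or TGFb3 2 (0.057 and 0.058).

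Among transporters the TGFb3 response was split. SLC1A4 rose to 10.7, 12.5 and 12.8 TPM, 2.80 times the control mean (log2 1.30 ± 0.082, adjusted p = 5.3e-07), the 1 member that rose by a log2 of 1 or more. SLC38A2 rose to 426, 445 and 452 TPM (log2 0.22 ± 0.038, adjusted p = 0.00063) and was the most abundant member in TGFb3. The heterodimer genes SLC3A2 and SLC7A5 both fell, SLC3A2 to 309, 273 and 289 TPM and SLC7A5 to 404, 394 and 388 TPM (log2 -0.49 and -0.41), and SLC1A5 fell to 169.6, 163 and 177 TPM. SLC7A1 at 58.1, 58.0 and 59.5 TPM overlapped the controls. SLC7A11 was at 40.5, 49.6 and 57.0 TPM (log2 -0.28 ± 0.099, adjusted p = 0.036), a call that was lost in 11 of 20 alternatives, among them leaving out any 1 control sample (adjusted p up to 0.079).

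**Figure D5:**
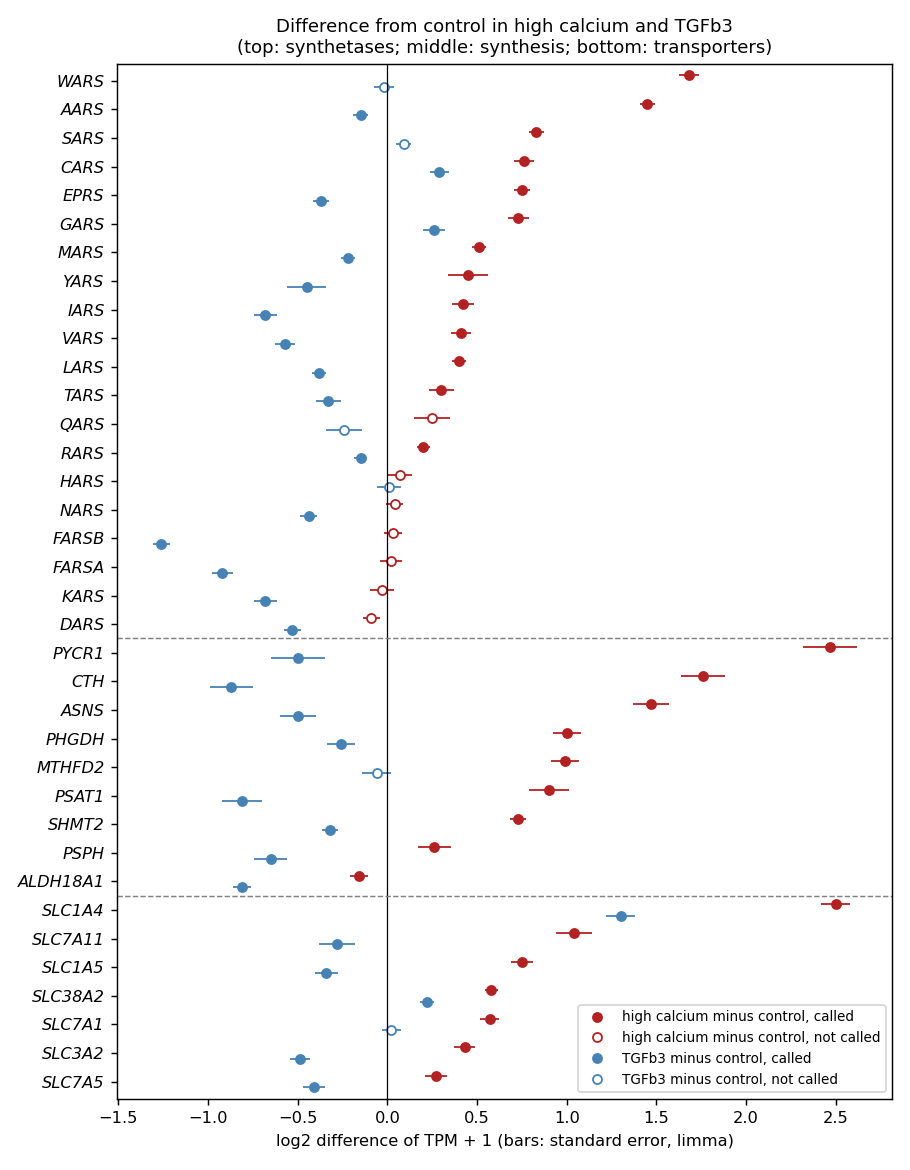
Log2 difference of TPM + 1 from control with its limma standard error for the 36 tested members in high calcium (red) and TGFb3 (blue), filled where called at an adjusted p under 0.05 and open where not; dashed lines part synthetases (top), synthesis (middle) and transporters (bottom). Most red points lie right of 0 and most blue points left of it, CARS, GARS, SLC38A2 and SLC1A4 are right of 0 in both, and ALDH18A1 is left of 0 in both.

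One TGFb3 library stood apart within its group. TGFb3 3 had the highest value of the 3 TGFb3 samples in 26 of 36 tested members, where it did so in 37.2% of all tested genes. The sums were 4913 TPM in TGFb3 3 and 4572 and 4583 TPM in the others. Without TGFb3 3 the members were called lower in 26 cases and higher in 4, and leaving out any 1 of the 9 samples gave 23 to 27 lower and 4 to 5 higher.

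Set side by side, the log2 differences of EPRS were 0.75 in high calcium and -0.37 in TGFb3, and those of ASNS 1.47 and -0.50. Those of SLC3A2 were 0.43 and -0.49, of CARS 0.76 and 0.29, and of ALDH18A1 -0.16 and -0.81. The treatments were also compared directly in the same fit of 9 samples. The control levels do not enter these differences, but the controls share in the estimate of spread. High calcium was above TGFb3 in 35 of 36 members and HARS was not called, where 50.4% of all tested genes were called higher in high calcium and 16.2% lower. The samples of the 2 treatments did not overlap in 35 members, all higher in high calcium, where 53.1% of all tested genes lay higher in high calcium without overlap and 18.1% lower. After median ratio rescaling 31 of them were called higher, 1 was called lower (HARS), against 29.5% and 30.9% of all tested genes, and GARS, QARS, RARS and SLC38A2 were not called. The largest direct differences were PYCR1 (log2 2.97), CTH (2.63), ASNS (log2 1.97 ± 0.1, adjusted p = 9.4e-08), PSAT1 (1.71), WARS (1.70) and AARS (1.60).

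Most mitochondrial synthetases fell in TGFb3, 13 of 17, while 1 rose and 3 were not called, with a median of -0.46. Of all tested genes, 33.1% were called lower and 26.5% higher, with a median of -0.06. MARS2, which went from 15.1, 15.0 and 14.8 to 6.70, 6.09 and 6.79 TPM, fell by log2 1.09, EARS2 by 0.94 and NARS2 by 0.93, and HARS2 rose by 0.14. Of the 16 amino acids with both genes the greater log2 difference was cytosolic in 8 and mitochondrial in 8.

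Other genes of amino acid metabolism did not follow one direction in high calcium. The wider list of enzymes had 24 genes, of which 22 were tested, and 11 rose and 9 fell, where median ratio rescaling gave 8 and 10, and TGFb3 gave 4 higher and 17 lower. Shares of all tested genes were 46.1% higher and 17% lower in high calcium, 29.5% and 30.9% after rescaling, and 26.5% and 33.1% in TGFb3. Within one-carbon metabolism the mitochondrial ALDH1L2 went from 63.4, 62.8 and 61.1 to 152, 151 and 145 TPM. The thymidylate synthase gene TYMS, which belongs to S phase, fell by log2 2.00. In TGFb3, GLDC of glycine cleavage fell by 1.81, ASS1 of arginine synthesis by 1.08 and TYMS by 1.05. Of 21 other amino acid transporters 16 were tested, and 6 rose and 4 fell in high calcium (5 and 6 after median ratio rescaling), and 8 rose and 4 fell in TGFb3. The cationic carrier SLC7A2 went from 16.8, 25.5 and 19.9 TPM to 79.7, 86.8 and 72.5 in high calcium and 65.5, 64.0 and 65.4 in TGFb3. SLC7A8, a large neutral carrier related to SLC7A5, had 0.946, 0.736 and 0.611 TPM in controls, 5.91, 6.78 and 5.89 TPM with high calcium and 5.59, 4.34 and 14.0 TPM with TGFb3, and the glutamate carrier SLC1A3 fell in both (log2 -1.42 and -2.53).

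Known regulators of the set were read beside it. ATF4 itself had 471, 475 and 446 TPM in controls, 689, 647 and 667 TPM with high calcium (log2 0.52 ± 0.04, adjusted p = 2e-06) and 479.9, 457 and 473 TPM with TGFb3 (log2 0.02 ± 0.04, adjusted p = 0.72). It is controlled largely in translation, which RNA levels do not show. Of 19 genes of the eIF2 kinases, ATF4 partners and feedback genes, 17 rose, 1 fell and 1 was not called in high calcium, and 9 rose and 8 fell in TGFb3. After median ratio rescaling 16 rose and 2 fell in high calcium, and 9 rose and 8 fell in TGFb3. Of all tested genes, 46.1% were called higher and 17% lower in high calcium, and 26.5% and 33.1% in TGFb3. After the rescaling these shares were 29.5% and 30.9% in high calcium, and 28.9% and 30.6% in TGFb3. Among the falls in TGFb3 were DDIT3 (log2 -0.56) and DDIT4 (log2 -1.06). TRIB3, an inhibitor in this pathway, went from 71.4, 72.3 and 67.7 TPM to 246, 247 and 241 in high calcium and 80.9, 80.7 and 85.6 in TGFb3. Of 7 genes of MYC and mTORC1, 6 were tested, and in high calcium 3 rose and 1 fell while in TGFb3 all 6 fell. After median ratio rescaling 1 rose and 3 fell in high calcium, and 5 fell in TGFb3. MYC had 213, 216 and 220.5 TPM in controls and 208, 209.6 and 211 TPM with high calcium, where it was not called (log2 -0.05, adjusted p = 0.28) but was called lower under all 4 other scalings. With TGFb3 it had 146, 142 and 151 TPM and fell (log2 -0.56 ± 0.035, adjusted p = 5e-07), and the treatments differed directly (log2 0.52, adjusted p = 7.9e-07). The part of these regulators in the members' levels was not tested.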

How the data were processed

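Per the labels, RNA of 9 MCF10A samples was extracted with Trizol and sequenced as paired reads on an Illumina NovaSeq. The submitters' processing notes name HISAT2 and hg38; the sources used here do not give the program for expression values, the annotation release or the strandedness. As deposited by the authors, 1 table gives TPM for 58288 entries, each sample summing to 1000000. TPM keeps no depth, so precision comes from the replicates. Here 1932 entries with 253 shared symbols were summed (none is a member), and log2(TPM + 1) of 13968 symbols (mean over the samples 1 TPM or more) was fitted with limma 3.58.1 (R 4.3.3; 9 samples, 3 groups, variance trend), two-sided, with Benjamini-Hochberg adjustment at 0.05. Coordinates are GENCODE release 29 (hg38). Promoters are RefSeq's. The members and lists were chosen with earlier results of these data known. Named genes are the members, up to 3 called genes each way of each other list, and ATF4, DDIT3, MYC, TRIB3 and the scaffold genes; marker genes were also named. Alternatives changed the pseudocount, filter, scaling, samples, variance trend and blocking. Scripts ran in Python 3.11.15 with pandas 2.3.3. The fit was also run on simulated data with 200 changed genes, far fewer than were called here. It recovered 24% (high calcium) and 37% (TGFb3) of 1.25-fold changes, and 69.5% and 81% of 1.5-fold changes. False calls made up 2.97% to 7.5% of calls. With many more genes called here the adjusted cutoff is less strict, so these shares need not hold for the real data. A gene not called may still differ.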

Additional observations from a re-analysis of the deposited data

How the results depend on the processing

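Over 20 alternatives the members called higher numbered 23 to 29 in high calcium against control, 4 to 5 in TGFb3 against control and 31 to 35 in high calcium against TGFb3, and those lower in TGFb3 against control 23 to 27. Members lower in high calcium against control were 1, and became 7 after median ratio rescaling (also 7 with size factors from tested symbols, an alternative chosen after seeing the data), 4 after quantile normalisation and 6 with mitochondrial genes left out, with a range of 0 to 1 when 1 sample was left out (0 without control 2, control 3 or high calcium 1). Members lower in high calcium against TGFb3 were 0, and 1 after either median ratio rescaling. Some log2 differences changed sign. Against control in high calcium they became, with median ratio rescaling on all and on tested symbols, -0.24 and -0.22 for FARSA, -0.22 and -0.20 for FARSB, -0.18 and -0.17 for HARS, -0.22 and -0.20 for NARS, and -0.06 and -0.04 for RARS. With all symbols, QARS in high calcium against control became -0.00092. With quantile normalisation they were -0.17 (FARSA), -0.14 (FARSB), -0.10 (HARS) and -0.09 (NARS), and with mitochondrial genes left out -0.18 (FARSA), -0.16 (FARSB), -0.13 (HARS) and -0.16 (NARS). HARS in high calcium against TGFb3 became -0.24 and -0.23 with the median ratios, -0.16 with quantile normalisation and -0.14 without mitochondrial genes. WARS in TGFb3 became 0.02 and 0.03 with the median ratios and 0.03 with quantile normalisation. Leaving out 1 sample gave ranges that cross 0 for FARSA (-0.03 to 0.06) and KARS (-0.07 to 0.03) in high calcium and for HARS (-0.02 to 0.05), WARS (-0.08 to 0.02) and SLC7A1 (-0.01 to 0.07) in TGFb3. The cause was not tested. Same-numbered samples of different groups did not deviate together (correlations of -0.075 to -0.004). This cannot show whether the numbers pair samples that were set up or processed together, which the labels do not say. With a replicate block the calls were 28 higher and 1 lower in high calcium, 4 and 26 in TGFb3, and 35 and 0 between the treatments.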
